A study of Mus musculus with 4 samples.

Results

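The embryonic globins and erythroid genes are 9 genes of the red blood cell lineage, taken from the deposited gene tables by symbol (Hbb-y, Hbb-bh1, Hba-x, Hba-a1, Hba-a2, Alas2, Gata1, Klf1 and Slc4a1). They were 9 of 46983 gene IDs in the tables, and all 9 were among the 16972 genes whose TPM averaged 1 or more and that were tested. TPM is the share of a transcript in its library after scaling to transcript length. To ask which genes depend on HH signaling in the larynx, bulk RNA-seq had been performed on larynxes dissected from mouse embryos of E10.5 (32 to 35 somites). The series holds 2 pools of 3 Shh-/- larynxes and 2 pools of 3 wild-type (WT) larynxes. Shh-/- embryos carried the Shh tm1amc null allele, kept on a Swiss Webster background, although the genotype in the labels reads as heterozygous. Every library is a pool of unsorted tissue, so blood, vessels, epithelium and mesenchyme were measured together, and pools 1 and 2 (Shh-/-) and 4 and 6 (WT) are named by the numbers in the labels.

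Red blood cells of the early mouse embryo come from the yolk sac. These primitive erythroid cells circulate through every vascularised organ and make embryonic haemoglobin, in which Hba-x (zeta globin) pairs with the beta-like chains of Hbb-bh1 and Hbb-y. Primitive cells also make adult alpha globin from Hba-a1 and Hba-a2, and as they mature Hba-x gives way to adult alpha globin and Hbb-bh1 to Hbb-y. Later, definitive cells from the fetal liver carry adult alpha and adult beta globin. Tissue that is dissected from an embryo and not sorted carries blood of its vessels into the RNA.

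Both globin families sit in clusters that are read out from shared enhancers, and erythroid promoters are known to be bound by GATA1 at GATA words and by KLF1 at CACCC words. The windows shown here are the RefSeq sequences before the start sites of members on both clusters, of the haem enzyme Alas2 and of the regulator Klf1 itself (GRCm38.p6, the mm10 build; 5′ to 3′ on the gene's strand). They are shown as background on these genes, and what part such words have in the levels of the members was not tested. Capitals mark CACCC and GATA words on either strand, a GATA word being GATA with A or T before it and A or G after it. Each window stops where an annotated exon or the gene as listed in the tables begins. Hbb-y lies at chr7:103853241-103853457 on the minus strand, Hba-a2 at chr11:32296242-32296488 on the plus strand, Alas2 at chrX:150547167-150547374 on the plus strand and Klf1 at chr8:84901732-84901927 on the plus strand. Of Hba-x, whose RefSeq start lies inside a GENCODE exon, a stretch of 30 bases at chr11:32276486-32276515 on the plus strand is given.
Hbb-y: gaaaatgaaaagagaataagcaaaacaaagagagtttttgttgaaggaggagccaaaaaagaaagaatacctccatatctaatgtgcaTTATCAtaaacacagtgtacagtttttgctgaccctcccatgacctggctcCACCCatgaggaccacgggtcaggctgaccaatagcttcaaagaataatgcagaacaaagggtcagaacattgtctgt
Hba-x: tggctcTGATAAcaggctcCACCCtgcaag
Hba-a2: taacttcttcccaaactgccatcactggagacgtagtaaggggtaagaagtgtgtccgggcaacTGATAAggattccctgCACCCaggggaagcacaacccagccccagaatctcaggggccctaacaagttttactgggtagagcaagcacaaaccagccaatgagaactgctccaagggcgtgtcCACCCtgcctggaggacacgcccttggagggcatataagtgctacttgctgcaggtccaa
Alas2: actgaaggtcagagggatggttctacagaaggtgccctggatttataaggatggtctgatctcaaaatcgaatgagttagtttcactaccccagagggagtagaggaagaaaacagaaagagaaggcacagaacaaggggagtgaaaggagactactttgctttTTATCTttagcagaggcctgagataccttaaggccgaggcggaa
Klf1: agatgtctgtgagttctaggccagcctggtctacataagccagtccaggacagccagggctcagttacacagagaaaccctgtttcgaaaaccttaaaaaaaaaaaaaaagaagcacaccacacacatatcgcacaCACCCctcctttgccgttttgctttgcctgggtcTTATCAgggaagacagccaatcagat

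RefSeq windows were found for 7 of the 9 members, the other two being Hbb-bh1 and Slc4a1. Within 250 bases before the start, 6 of the 7 held a GATA word (the Gata1 window held none) and 7 of 7 held a CACCC word. Of 32817 mouse promoter windows of that length, 26.6% held such a GATA word, 52.0% held CACCC and 11.8% held both. In Hba-x the GATA word nearest the start lay 108 to 103 bases before it, with CACCC 95 to 91 bases before. In Klf1 the 2 words came in the opposite order, CACCC at 114 to 110 bases and GATA at 80 to 75. The 3 CACCC words of Alas2 lay closer to its start than the printed stretch, at 40 to 26 bases. The windows of Hba-a1 and Hba-a2 were identical over 247 of 247 aligned bases. A match is a run of letters and not a measured binding site.

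Sequencing depth, worked out from the ratio of coverage to FPKM, was 18300000 aligned reads in Shh-/- pool 1 and 37900000 to 41700000 in the other 3 libraries. RNA integrity numbers ran from 7.7 to 9. The label check followed genotype, in that Ptch1, the HH receptor and target, fell by 2.0 on the log2 scale in Shh-/- larynx (limma, adjusted p = 0.0319), a call that, like those of all other genes, was lost when either Shh-/- pool was left out (0 genes called, with 2762 and 3742 at an unadjusted p under 0.05). Shh itself was lower too (log2 fold change -1.49, limma adjusted p = 0.0895). Epithelial genes were present in every pool, the 10 listed genes summing to 605 to 694 TPM, most of it from general epithelial genes such as Epcam, Krt8, Krt18 and Cldn6. Of the foregut factors in that list, Foxa2 and Nkx2-1, chosen here after their values were seen, were lower. Foxa2 was 5.34 and 9.12 TPM in Shh-/- and 29.2 and 39.8 TPM in WT (log2 fold change -2.13, limma adjusted p = 0.0602). Nkx2-1 was 6.16 and 3.61 TPM against 15.9 and 17.9 TPM (limma adjusted p = 0.0715). Sox2, also chosen after its values were seen, was not lower. It was 52.2 and 37.9 TPM in Shh-/- and 39.5 and 47.3 TPM in WT (log2 fold change 0.04, limma adjusted p = 0.910). In all, 5 of the 10 listed genes had both Shh-/- pools below both WT pools, as did 22.7% of all tested genes. Another 3 had both Shh-/- pools above both WT pools, as did 38.0% of all tested genes. By log2 fold change, 5 of the 10 were higher and 5 lower.

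Haemoglobin transcripts were abundant in every pool, and the difference between genotypes was smaller than the spread between the Shh-/- pools. All globin genes together took 1.18% of TPM in Shh-/- pool 1, 1.79% in Shh-/- pool 2, 1.63% in WT pool 4 and 1.85% in WT pool 6. The Shh-/- mean was 1.49% ± 0.434 (SD, n = 2) and the WT mean 1.74% ± 0.158 (SD, n = 2), a log2 difference of -0.26 (exact permutation test, two-sided, p = 0.667). Shh-/- pool 1 was the low library and the other 3 lay close together. With that pool left out, the log2 difference was 0.04. In bulk tissue, fewer red blood cells and less globin RNA per cell cannot be told apart.

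Embryonic globins made up most of this RNA. Together Hbb-y, Hbb-bh1 and Hba-x were 77.3% and 79.1% of globin TPM in Shh-/- larynx and 77.9% and 80.1% in WT larynx. The TPM ratio of embryonic to adult globin was 3.44 and 3.87 in Shh-/- and 3.72 and 4.35 in WT, and the groups overlapped (exact permutation p = 0.667). In all 4 libraries, TPM ordered the genes as Hbb-y, Hbb-bh1, Hba-x, Hba-a1, Hba-a2. Across libraries the ranges of Hbb-y and Hbb-bh1 did not overlap, whereas those of each later neighbouring pair in that order did. The non-globin members lay far lower, with Slc4a1 and Alas2 at similar levels (each was the higher of the pair in 2 of 4 libraries) and Klf1 above Gata1 in every library.

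**Figure D1:**
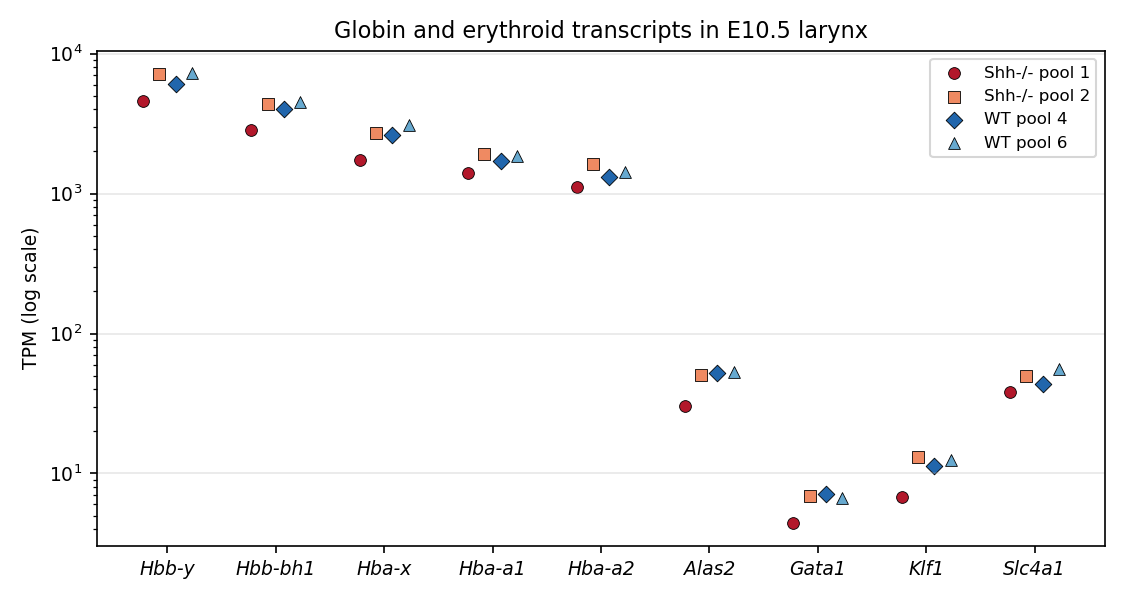
TPM (log scale) of the 9 genes in the 4 libraries, 1 point per pool, red and orange for Shh-/- and blue for WT. Shh-/- pool 1 is the lowest point for all 9 genes (it is lowest for 22.3% of all tested genes), and globins reach 1107 to 7241 TPM whereas Gata1 and Klf1 lie at 4.41 to 13.2 TPM.

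Hbb-y (ENSMUSG00000052187.3, chr7:103851745-103853240, minus strand), the embryonic epsilon-type beta globin, was measured at 4550 and 7118 TPM in Shh-/- larynx and 6088 and 7241 TPM in WT larynx. Its log2 fold change, given throughout as Shh-/- minus WT on log2(TPM + 1), was -0.22 (95% interval -0.83 to 0.38, limma adjusted p = 0.571). Shh-/- pool 2 lay between the 2 WT pools. Hbb-bh1 (ENSMUSG00000052217.5, chr7:103841636-103843164, minus strand), the beta-like chain made earliest in primitive cells, stood at 2832 and 4344 TPM in Shh-/- and at 4002 and 4525 TPM in WT. The log2 fold change of Hbb-bh1 was -0.28 (95% interval -0.84 to 0.29, limma adjusted p = 0.452), again with one Shh-/- pool low and one inside the WT range. Relative to Hbb-y, Hbb-bh1 was 0.622 and 0.610 in Shh-/- and 0.657 and 0.625 in WT. This ratio, which falls as primitive cells mature, differed by -0.06 on the log2 scale, and although its groups did not overlap the nearest pools were 0.622 and 0.625 (exact permutation p = 0.333, the smallest that 2 pools against 2 can give). Leaving out WT pool 4 or WT pool 6 moved it to -0.02 or -0.09.

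Hba-x (ENSMUSG00000055609.8, chr11:32276400-32278116, plus strand), the embryonic alpha-like chain, was measured at 1741 and 2719 TPM in Shh-/- larynx and 2618 and 3084 TPM in WT larynx. Its log2 fold change was -0.38 (95% interval -0.98 to 0.21, limma adjusted p = 0.348), the lowest among the 5 globin members. The adult alpha genes Hba-a1 (ENSMUSG00000069919.7, chr11:32283511-32284465) and Hba-a2 (ENSMUSG00000069917.7, chr11:32296489-32297298) share 62.2% and 81.0% of their 75-base words with each other, so how reads were divided between them is uncertain and their sum is read. That sum was 2520 and 3545 TPM in Shh-/- and 3024 and 3288 TPM in WT, with Shh-/- pool 2 the highest library. Individually, Hba-a1 was 1413, 1926, 1719 and 1867 TPM in Shh-/- pools 1 and 2 and WT pools 4 and 6, and Hba-a2 was 1107, 1620, 1305 and 1421 TPM. Neither passed the test, with log2 fold changes of -0.12 for Hba-a1 (95% interval -0.55 to 0.31, limma adjusted p = 0.673) and -0.02 for Hba-a2 (95% interval -0.53 to 0.48, limma adjusted p = 0.947).

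The balance of embryonic to adult alpha globin was the ratio that separated the genotypes by the widest margin among the globin members. Hba-x was 0.691 and 0.767 of the adult alpha TPM in Shh-/- larynx and 0.866 and 0.938 in WT larynx. Both Shh-/- pools, including the one with WT-like haemoglobin, lay below both WT pools. The log2 difference was -0.31 (exact permutation p = 0.333), and it stayed between -0.38 and -0.23 whichever library was left out. Its sign was fixed in these settings, since groups that do not overlap keep their order when a library is left out. Computed from read coverage in place of TPM, the ratio was 0.450 and 0.493 in Shh-/- and 0.562 and 0.616 in WT. Hba-x was also lower against the embryonic beta-like chains, at 0.236 and 0.237 in Shh-/- and 0.259 and 0.262 in WT. Adult alpha globin against all beta globin went the other way, at 0.335 and 0.304 in Shh-/- and 0.283 and 0.270 in WT. These ratios and the coverage values came from the same libraries and overlapping genes, so they are not separate support. In all, 24 shares and ratios were computed from these genes and 16 had groups that did not overlap, as had 60.7% of all tested genes. Since no exact p can go below 0.333, the lowest Benjamini-Hochberg adjusted value was 0.5.

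Adult beta globin was a trace component. Hbb-bs and Hbb-bt, the adult beta genes of the reference haplotype, share 64.3% and 56.6% of their 75-base words with each other and together were 134 and 120 TPM in Shh-/- larynx and 392 and 129 TPM in WT larynx. WT pool 4 stood apart from the other 3 libraries. As a share of all beta globin TPM, adult chains were 1.77% and 1.03% in Shh-/- and 3.67% and 1.06% in WT, a difference of -0.96 percentage points (exact permutation p = 0.667). Without WT pool 4 the difference turned to 0.34 percentage points. Since that pool decided the direction, no order of the genotypes could be read from adult beta globin.

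**Figure D2:**
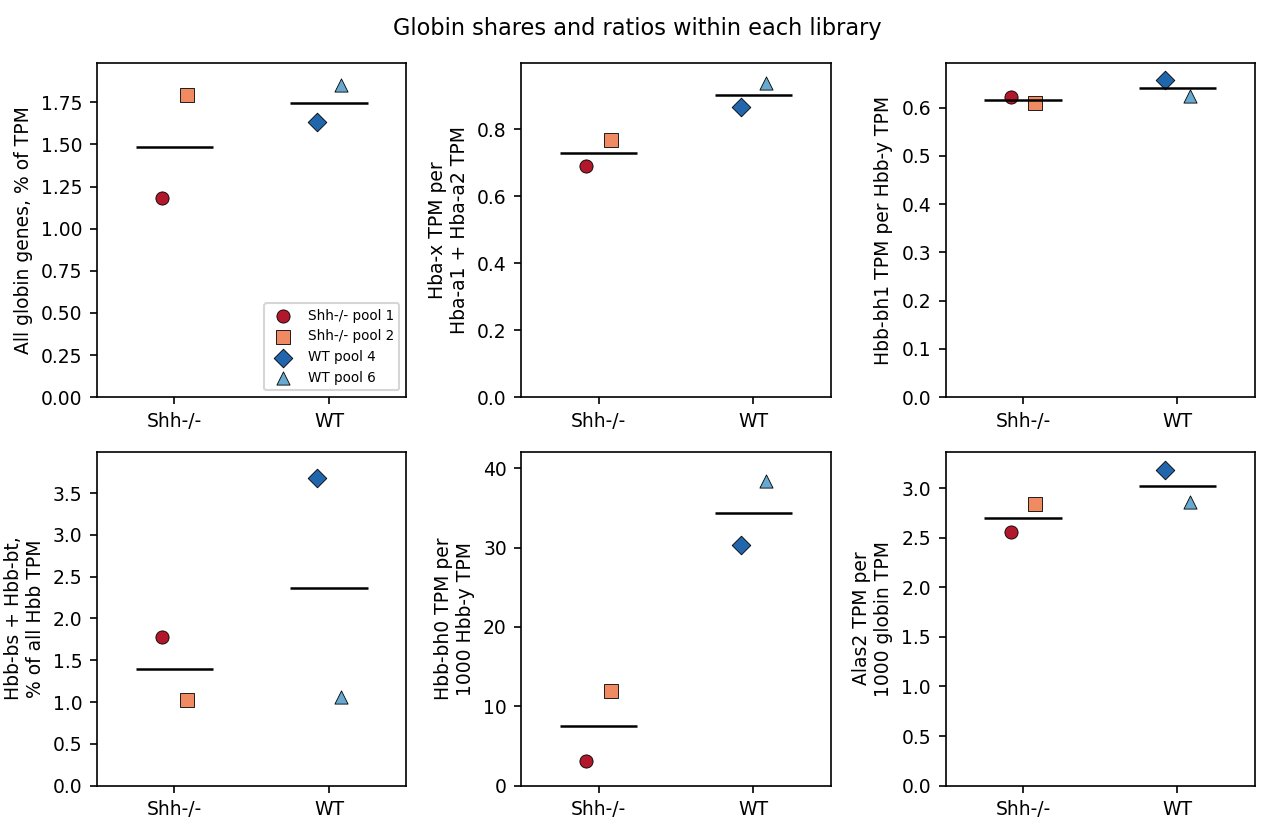
Shares and ratios of globin and erythroid TPM, 1 point per pool with a line at each group's mean. Hba-x per adult alpha globin (0.691 and 0.767 in Shh-/-, 0.866 and 0.938 in WT) and Hbb-bh0 per 1000 Hbb-y separate the genotypes, whereas the haemoglobin share is set by Shh-/- pool 1 and the adult beta share by WT pool 4.

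Of the other genes of the 2 clusters, 6 of 8 were found under the listed symbols and 4 were tested, with 0 called by limma (0.725% of all tested genes were called), 1 with an unadjusted p under 0.05 and a median log2 fold change of -0.79. The gene with that unadjusted p was Hbb-bh0, a beta-like pseudogene between Hbb-bh1 and Hbb-y on the minus strand. It was measured at 14.4 and 85.1 TPM in Shh-/- larynx and 185 and 278 TPM in WT larynx, about 16, 228, 453 and 709 reads at an inferred read length of 75 nt. Both Shh-/- pools were lower than both WT pools, with a log2 fold change of -2.64 (95% interval -4.75 to -0.54, limma adjusted p = 0.153). Per 1000 TPM of its neighbour Hbb-y, Hbb-bh0 was 3.17 and 11.95 in Shh-/- and 30.4 and 38.3 in WT (exact permutation p = 0.333). As annotated in GENCODE M21 it is a single stretch of 129 bases at chr7:103850020-103850148, and none of its 75-base words occurs in a transcript of another gene, so no read inside it matches Hbb-y over its full length. Swiss Webster is an outbred stock and the reads were aligned to mm10, and the Hbb haplotypes of the pools were not tested, so a difference in sequence at the locus and one in transcript level cannot be told apart. The transcript is shown as the sequence behind the largest difference within the clusters.
Hbb-bh0: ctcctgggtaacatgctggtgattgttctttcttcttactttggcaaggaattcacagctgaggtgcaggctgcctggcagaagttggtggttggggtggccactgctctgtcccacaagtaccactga
The alpha-cluster gene Hbq1b (theta globin) was low, at 4.40 and 3.25 TPM in Shh-/- and 1.53 and 2.56 TPM in WT (log2 fold change 0.67, 95% interval -0.01 to 1.36, limma adjusted p = 0.208). Hbb-bh2 was listed at 0 in all 4 libraries.

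Alas2 (ENSMUSG00000025270.13, chrX:150547375-150570638, plus strand), the erythroid enzyme that starts haem synthesis, was the one member whose Shh-/- pools both lay below both WT pools, as did 22.7% of all tested genes. It was measured at 30.2 and 50.9 TPM in Shh-/- and 51.8 and 53.1 TPM in WT. Its log2 fold change of -0.41 was the lowest of the 9 members (95% interval -1.07 to 0.25, limma adjusted p = 0.361). Shh-/- pool 2 was close to both WT pools, and Shh-/- pool 1 lay well below the other 3. Per 1000 TPM of globin, Alas2 was 2.56 and 2.84 in Shh-/- and 3.18 and 2.86 in WT (exact permutation p = 0.333). The other haem synthesis genes, most of which every cell uses, were split. Of 12 tested, 8 were higher and 4 lower in Shh-/-, with a median log2 fold change of 0.17. Among all 16972 tested genes, 9895 were higher. Limma called 0 of the 12, beside 0.725% of all tested genes. Beside 4202 of all 16972 tested genes, 1 of the 12 had an unadjusted p under 0.05. The gene with that p was Tmem14c, a mitochondrial porphyrin carrier and the most abundant of the list, at 148 and 172 TPM in Shh-/- and 115 and 132 TPM in WT (log2 fold change 0.37, 95% interval 0.05 to 0.70, limma adjusted p = 0.170). Urod, a decarboxylase of the pathway, was 136 and 109 TPM in Shh-/- and 105 and 95.9 TPM in WT.

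Gata1 (ENSMUSG00000031162.14, chrX:7959260-7978071, minus strand), the zinc finger factor required for red blood cell maturation, was the least abundant member. Its levels were 4.41 and 6.88 TPM in Shh-/- larynx and 7.09 and 6.67 TPM in WT larynx, with a log2 fold change of -0.27 (95% interval -0.88 to 0.34, limma adjusted p = 0.494). Klf1 (ENSMUSG00000054191.7, chr8:84901928-84905295, plus strand), the factor that activates adult beta globin and many red cell genes, was measured at 6.73 and 13.2 TPM in Shh-/- and 11.3 and 12.4 TPM in WT. Its log2 fold change was -0.30 (95% interval -1.11 to 0.51, limma adjusted p = 0.574), and Shh-/- pools 1 and 2 were the lowest and the highest of the 4 libraries. Against globin, neither factor separated the genotypes. Per 1000 TPM of globin, Gata1 was 0.374 and 0.384 in Shh-/- and 0.435 and 0.360 in WT, and Klf1 was 0.571 and 0.736 in Shh-/- and 0.696 and 0.670 in WT (exact permutation p = 1 for each).

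Of the 13 other listed erythroid transcription factors, 10 were higher and 3 lower in Shh-/-, with a median log2 fold change of 0.49. Among all 16972 tested genes, 9895 were higher, with a median of 0.08. Limma called 0 of the 13, and 4 of the 13 had an unadjusted p under 0.05, beside 4202 of all 16972 tested genes. Several of the 13 factors are also made outside the red cell lineage. Ldb1, a broadly expressed adaptor of the GATA1 complex, was 231 and 206 TPM in Shh-/- and 159 and 130 TPM in WT (log2 fold change 0.60, 95% interval 0.24 to 0.95, limma adjusted p = 0.110). Zfpm1, the GATA1 cofactor FOG1, was 26.8 and 27.1 TPM in Shh-/- and 20.5 and 20.9 TPM in WT (limma adjusted p = 0.160). Lmo2, a partner of Ldb1 in blood and endothelium, was 19.9 and 31.9 TPM in Shh-/- and 10.4 and 23.1 TPM in WT. Bcl11a, a repressor of embryonic globin genes that is also made in neural tissue, was 20.8 and 18.2 TPM in Shh-/- and 22.9 and 27.1 TPM in WT (log2 fold change -0.34, limma adjusted p = 0.239).

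Slc4a1 (ENSMUSG00000006574.15, chr11:102348824-102366203, minus strand) encodes band 3, the anion exchanger that anchors the red cell skeleton to the membrane. It was measured at 38.2 and 49.8 TPM in Shh-/- larynx and 43.9 and 55.4 TPM in WT larynx, and the groups interleaved. Its log2 fold change was -0.17 (95% interval -0.66 to 0.31, limma adjusted p = 0.585). Per 1000 TPM of globin, Slc4a1 was 3.24 and 2.78 in Shh-/- and 2.69 and 2.99 in WT (exact permutation p = 0.667).

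Other membrane and skeleton genes were split, with 7 of 16 higher and 9 lower in Shh-/- and a median of -0.13. Limma called 0, and 4 of the 16 had an unadjusted p under 0.05, beside 4202 of all 16972 tested genes. Of those 4 membrane and skeleton genes, 3 were higher and 1 lower. Epb41, the widely expressed protein 4.1 and the most abundant of the list, stood at 72.8 and 64.0 TPM in Shh-/- and 54.4 and 49.5 TPM in WT (limma adjusted p = 0.156). Sptb, beta spectrin, was 17.1 and 20.7 TPM in Shh-/- and 14.3 and 9.91 TPM in WT (limma adjusted p = 0.177). The other two were chosen after their values were seen. Aqp1, a water channel that endothelium also makes, was 5.62 and 6.36 TPM in Shh-/- and 1.80 and 2.40 TPM in WT (log2 fold change 1.18, limma adjusted p = 0.0806). Ank1, the ankyrin that ties band 3 to spectrin, was 5.49 and 5.62 TPM in Shh-/- and 9.23 and 9.34 TPM in WT (log2 fold change -0.65, limma adjusted p = 0.114).

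The iron uptake, chaperone and other red cell genes were more often lower, with 10 of 12 tested genes below 0 and a median of -0.18. Among all 16972 tested genes, 7077 were below 0. Shh-/- pool 1 was the lowest library for 8 of the 12, as for 22.3% of all tested genes. Limma called 0 of the 12, beside 0.725% of all tested genes. Beside 4202 of all 16972 tested genes, 1 of the 12 had an unadjusted p under 0.05. That gene was Tfrc, the transferrin receptor that dividing cells and erythroid precursors use for iron. It was 75.0 and 72.2 TPM in Shh-/- larynx and 109 and 127 TPM in WT larynx (log2 fold change -0.67, 95% interval -0.97 to -0.37, limma adjusted p = 0.0800). Unlike the members, Tfrc was lowest in Shh-/- pool 2. Prdx2, a peroxiredoxin abundant in red blood cells, was 1122 and 1215 TPM in Shh-/- and 1219 and 1631 TPM in WT (limma adjusted p = 0.337). Car1 was listed at 0 in every library, and Ahsp was not found in the tables under that symbol.

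**Figure D3:**
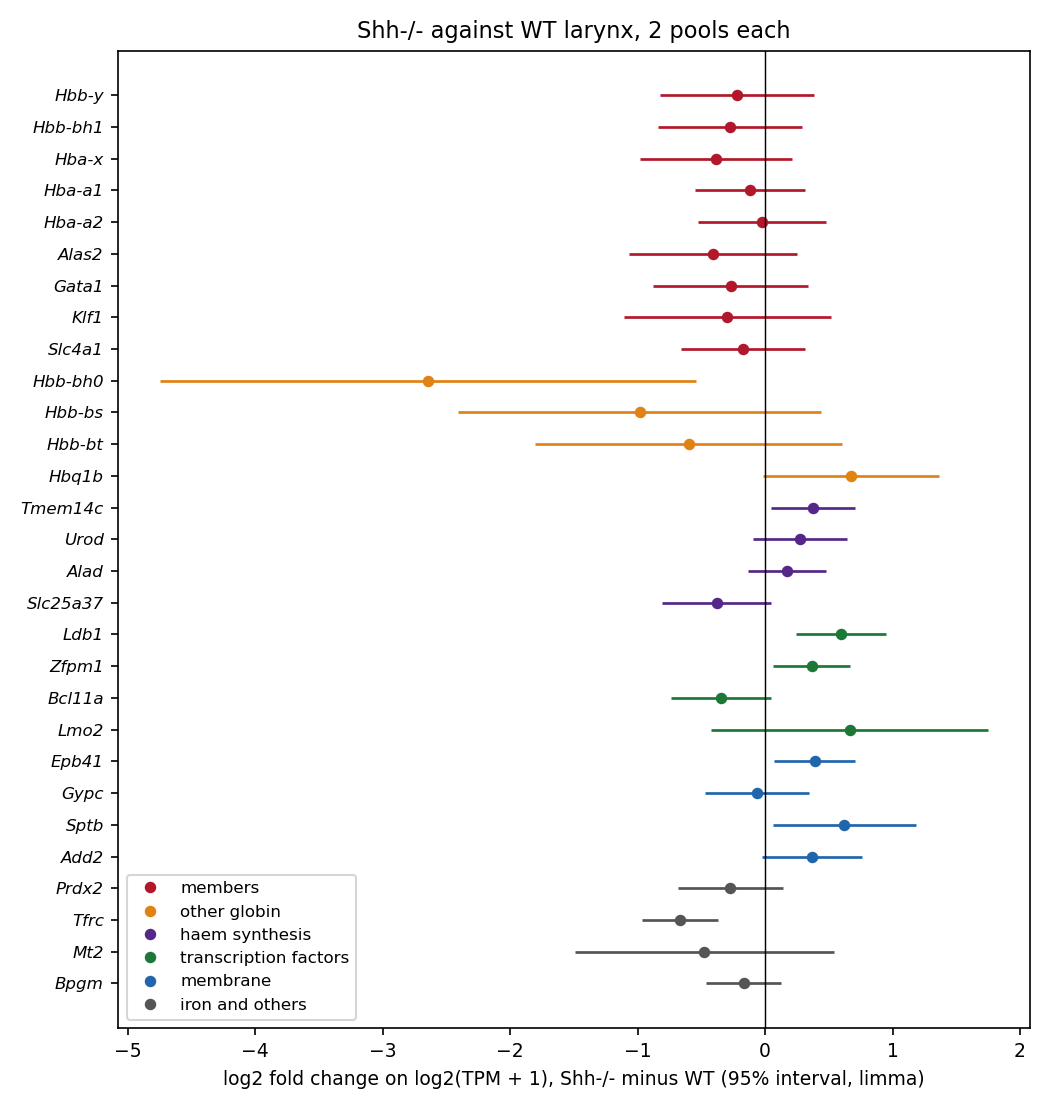
Log2 fold change, Shh-/- minus WT on log2(TPM + 1), with its 95% interval from limma, for the 9 members, the 4 tested other globin genes and 4 of the most abundant genes of each related list. All 9 members lie at or slightly below 0 with intervals that span it, and Hbb-bh0 lies farthest left at -2.64.

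Across the 9 members, 0 were called by limma at an adjusted p under 0.05 and 0 had an unadjusted p under 0.05. Over all 16972 tested genes, 123 were called (0.725%), 95 higher and 28 lower, and 4202 had an unadjusted p under 0.05. The members' median log2 fold change was -0.27, beside 0.08 over all genes, and all 9 were below 0. For 7 of the 9 members this sign rested on 1 library. Shh-/- pool 1 was the lowest of the 4 libraries for 9 of 9 members, which held for 22.3% of all tested genes. It had the members at 54.6% (Klf1) to 76.9% (Hba-a1) of the mean of the other 3 pools. Only Alas2, 1 of 9, had both Shh-/- pools below both WT pools, against 22.7% of all tested genes. Without Shh-/- pool 1 the log2 fold changes were 0.10 for Hbb-y, 0.03 for Hbb-bh1, 0.10 for Hba-a1, 0.25 for Hba-a2, 0.14 for Klf1 and 0.01 for Slc4a1, and Gata1 stood at 0.000396. Hba-x and Alas2 kept their sign, at -0.06 and -0.04, which for Alas2 follows from groups that did not overlap. The median of the members was then 0.03. Shh-/- pool 1 was also the least deeply sequenced library, and the part of depth in its low globin values was not tested.

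The 5 genes whose pattern over the 4 libraries was most like that of the members were C330018D20Rik, Cited4, Imp4, Ubl5 and Ttc32. Likeness was the root mean square distance from the mean profile of the 8 members with a mean TPM of 10 or more, which leaves out Gata1. It ran from 0.005 to 0.051 on the log2 scale for these 5, and from 0.020 to 0.111 for the 8 members themselves, out of 10366 candidates with a mean TPM of at least 10. Imp4, a component of the ribosomal RNA processing machinery, stood at 45.3 and 66.97 TPM in Shh-/- and 58.3 and 66.9 TPM in WT. All 5 genes, like the members, were lowest in Shh-/- pool 1, which follows from how they were chosen.

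Endothelial genes were measured in the same pools. Of 12 endothelial genes, all 12 were above 0 in Shh-/- (median 0.77 on the log2 scale), as were 9895 of all 16972 tested genes. Esam, named after its values were seen, was unchanged, with a log2 fold change of 7.01e-05. The other 11 had both Shh-/- pools above both WT pools, against 38.0% of all tested genes. Tie1, an endothelial receptor tyrosine kinase, was the one called gene of the list, at 38.9 and 43.2 TPM in Shh-/- and 18.5 and 16.9 TPM in WT (log2 fold change 1.17, limma adjusted p = 0.0470), a call lost without either Shh-/- pool. By limma, 9 of the 12 genes had an unadjusted p under 0.05, as had 4202 of all 16972 tested genes. The summed endothelial level was 551 and 721 TPM in Shh-/- and 384 and 363 TPM in WT. Shh-/- pool 1, lowest for every member, was thus above both WT pools in its summed endothelial level. Platelet and megakaryocyte genes (5 tested) had a median of 0.04 with 0 called and 1 with an unadjusted p under 0.05, and Pf4, the platelet chemokine that is their most abundant gene, was 16.0 and 22.7 TPM in Shh-/- and 17.7 and 21.7 TPM in WT. The 10 listed macrophage and leukocyte genes summed to 17.8 to 25.5 TPM in Shh-/- and 13.0 to 20.2 TPM in WT, and of the 7 tested 0 were called and 0 had an unadjusted p under 0.05 by limma. What part vessel content has in the erythroid values was not tested.

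**Figure D4:**
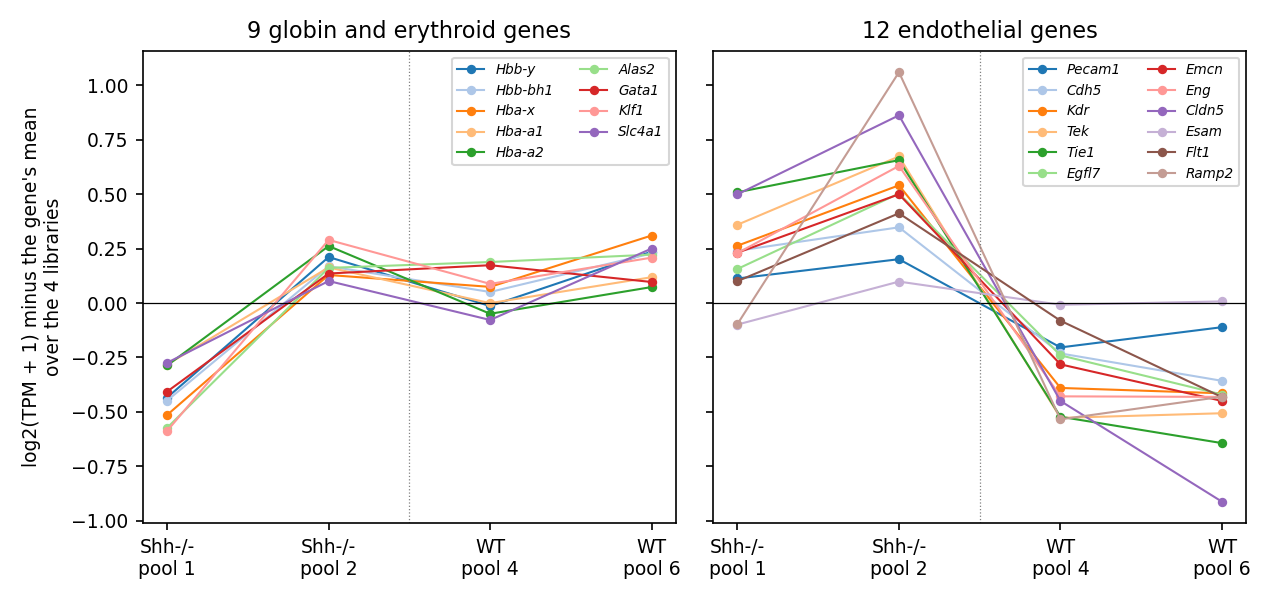
Log2(TPM + 1) of each gene in the 4 libraries, centred on the gene's own mean, for the 9 globin and erythroid genes (left) and 12 endothelial genes (right), 1 line per gene. All 9 erythroid lines are lowest in Shh-/- pool 1 and differ among themselves over the other 3 pools, and 11 of the 12 endothelial genes have both Shh-/- pools above both WT pools.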

How the data were processed

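RNA was extracted from pools of 3 larynxes per library, poly(A)-selected and made into directional libraries with 10 cycles of PCR, then single-end sequenced. The submitters' processing notes name HISAT2 2.1.0, StringTie 1.3.6 and mm10, with no role stated there, and the study's methods give them as aligner and assembler. The authors deposited 1 gene table per library with 3 values: read coverage, the mean signal per base without normalization; FPKM, which the authors scaled to library and transcript length; and TPM, which the authors scaled to a fixed sum per library. No count column was used, so depth was derived from coverage over FPKM in genes with a single transcript, with an inferred read length of 75 nt (whole reads in 21.5 to 26.6% of low-coverage genes per library, against at most 10.9% at 45, 50 or 150 nt), and no counting interval was given.

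TPM was summed per gene ID. Linear models were fitted on log2(TPM + 1) in limma 3.58.1 under R 4.3.3, using a trended eBayes prior, for 16972 genes whose TPM averaged 1 or more, two-sided, with Benjamini-Hochberg adjustment over all of them and a threshold of 0.05. Fold changes on this scale understate the change of low genes. Ratios were compared by two-sided exact permutation (scipy 1.17.1, Python 3.11.15), which cannot go below 0.333 with 2 pools against 2. Nothing says that pools came from separate litters, so p-values measure only the spread between pools. The design text and the methods give the mutants as Shh-/-, which was used. The members and gene lists were chosen with earlier results of these data known.

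Genes named are the 9 members, at most 4 to 6 of the most abundant genes of each list and any past the threshold, the 5 genes nearest to the members' mean profile, and Shh and Ptch1. Others are marked as chosen after their values were seen, and some listed genes are counted but not reported here by name. Motifs were counted in RefSeq promoter windows (GRCm38.p6), shared words in GENCODE M21 transcripts. Alternatives were a pseudocount of 0.1, no TPM filter or one of 5, quantile normalization, median centring, TPM without globin genes, FPKM or coverage, eBayes without trend or robust, and leaving out each pool.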

Additional observations from a re-analysis of the deposited data

How the results depend on the processing

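Calls over all genes depended on the settings. Of the 9 members, 0 passed in the fit or in any alternative that kept every pool. In the fit 0.725% of all tested genes were called, so 0 of 9 sets the members apart from no other genes. With no filter on TPM no gene was called at all, so no member could pass there. The number of genes called was 123 in the fit, 69 with a pseudocount of 0.1, 0 with no filter on TPM (5011 at an unadjusted p under 0.05) and 0 to 21 when 1 pool was left out, where the lone pool is assumed to vary like the pair. Median centring moved the median of all genes from 0.08 to -0.05 and that of the members to -0.40.

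Leaving out each pool in turn gave log2 fold changes of -0.55 to 0.10 for Hbb-y, -0.59 to 0.0297 for Hbb-bh1, -0.34 to 0.10 for Hba-a1, -0.30 to 0.25 for Hba-a2, -0.54 to 0.000396 for Gata1, -0.74 to 0.14 for Klf1 and -0.36 to 0.0148 for Slc4a1. Hba-a2 was also above 0, at 0.04, without WT pool 6. The median of the members ran from -0.55 to 0.0297 and the haemoglobin share from -0.56 to 0.0443 on the log2 scale. The adult share of beta globin ran from -2.27 to 0.34 percentage points. Relative to haemoglobin, Gata1 ran from -0.20 to 0.0747, Klf1 from -0.26 to 0.11 and Slc4a1 from -0.0290 to 0.19 on the log2 scale. Hba-x, Alas2, Hba-x per adult alpha globin and Hbb-bh1 per Hbb-y kept their direction in all settings run. For Alas2 and both ratios the groups did not overlap, so leaving out a pool could not have changed the sign. The cause of the changes of sign in the other results was not tested.

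No paired analysis was possible because the Shh-/- pools are numbered 1 and 2 and the WT pools 4 and 6. With 2 pools per genotype, the 95% intervals reach as far as -1.11 to 0.51 for Klf1, and a change within that range is not excluded.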
